A study of Sus scrofa with 12 samples.

Results

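The livers of pigs with high and with low aggressiveness were compared over all 12 arrays of the study, 6 animals in each group, and all of the animals were used. Each of the 12 arrays holds the liver RNA of 1 adult German Landrace pig on the Affymetrix porcine array, which measures a transcript with a set of short probes (a probe set). The labels cross aggressiveness (low or high) with stress response (low or high). With 1 female and 2 males in every one of the 4 combinations, both groups compared here had the same make-up of stress response and sex. The labels name no allele and no treatment. How aggressiveness or stress response was scored is not given in the sources used here, and neither is a batch of RNA or arrays. The question was which liver transcripts differ in level with the aggressiveness of the animal once stress response and sex are in the model.

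The liver is an endocrine target as well as a metabolic organ. Glucocorticoids from the adrenal gland reach hepatocytes through their receptor and switch on genes of glucose and amino acid metabolism, and enzymes of the 11β-hydroxysteroid dehydrogenase pair set how much active hormone a cell sees. Hepatocytes also make most plasma proteins, whose genes respond to cytokines in the acute phase response, and take up and break down monoamines. Aggression and social defeat are known to move the same stress hormones and immune signals in several mammals.

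All arrays had been scaled to the same mean before deposit, 500.2 after trimming 2% at each end, and their median signals lay between 93.3 and 117. The liver label was borne out by its markers: albumin (ALB) had lowest, median and highest signals of 39361, 49793 and 61125 at high and 35648, 45059.9 and 52631 at low aggressiveness. The 2 arrays least like the rest, high aggressiveness 6 and low aggressiveness 6, had median correlations of 0.953 and 0.957 with the other arrays, while the highest in the study was 0.966. One measure of RNA quality separated the groups. The log2 ratio of the 3' to the 5' signal of the control transcript EF1A was 0.757, 0.903 and 0.993 (lowest, median, highest) at high and 0.685, 0.733 and 0.748 at low aggressiveness, with no overlap. The difference of 0.17 had a two-sided exact permutation p of 0.00216 (0.00866 after adjustment over 4 ratios). The same ratio for GAPDH differed by 0.0449 (exact permutation p = 0.593), for actin by 0.03 (exact permutation p = 0.861) and as the mean of the 3 by 0.0818 (exact permutation p = 0.227). The EF1A ratio moved with aggressiveness, and its part in the results was not tested beyond its use as a covariate, whose values stand below beside each gene that leads by p, has p under 0.05 or leads the interaction and that it moves by over 1.5 times. For other members of the gene lists they are not given, and list medians with the covariate are given for some lists only. With it the median fold change of all probe sets was -0.076, against 0.007 without it. Because the EF1A ratios of the groups did not overlap, a fit that holds both cannot well separate the ratio from aggressiveness. Values with the covariate are given here and below without their errors. A smaller value or a turned sign there does not tell the part of the ratio from that of aggressiveness.

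**Figure D1:**
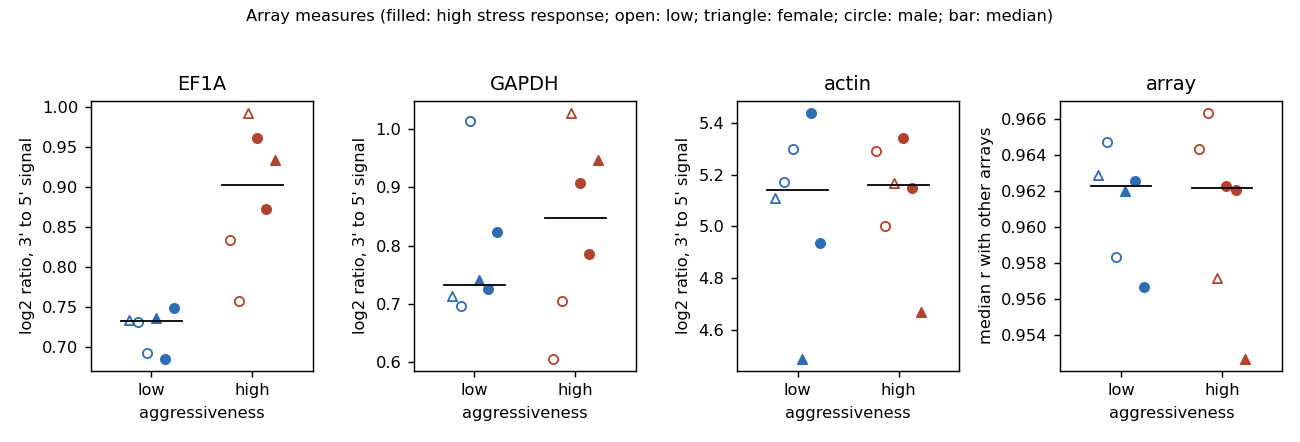
Array measures by aggressiveness, 1 point per animal. From left, the log2 ratio of 3' to 5' signal of EF1A, GAPDH and actin, and the median correlation of each array with the other 11. The 6 EF1A ratios at high aggressiveness (0.757 to 0.993) lie above all 6 at low (0.685 to 0.748), and the other 3 measures overlap.

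No transcript passed the test between high and low aggressiveness. Of 15999 probe sets tested with limma, 0 (0.0%) had an adjusted p under 0.05, and the smallest adjusted p was 0.553. The unadjusted p was under 0.05 for 515 probe sets (3.22%), of which 295 (1.84%) were higher and 220 (1.38%) lower at high aggressiveness, where 800 would pass if p-values were spread evenly. It was under 0.01 for 82 (0.513%), of which 50 (0.313%) were higher and 32 (0.2%) lower, against 160 for an even spread. The higher ones made up 61.0% of these 82, 50.5% after quantile normalization, 42.1% among males only and 21.2% with the EF1A ratio as a covariate. Small p-values were thus fewer than an even spread would give, as the histogram of p-values shows.

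The intervals say how large a difference the 12 animals leave room for. Fold changes here are on the scale log2(signal + 16), high minus low aggressiveness, which understates the change of dim probe sets. The 95% interval of the fold change reached a median of 0.38 to either side. For 5439 of the 5810 named genes (93.6%) the interval lay within -1 and 1, and for 3499 (60.2%) within -0.5 and 0.5. A fitted difference above 1 in size was found for 28 probe sets (0.175%), 19 higher and 9 lower, and their mean signals were low, with a median of 82.8 against 249 over all tested.

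**Figure D2:**
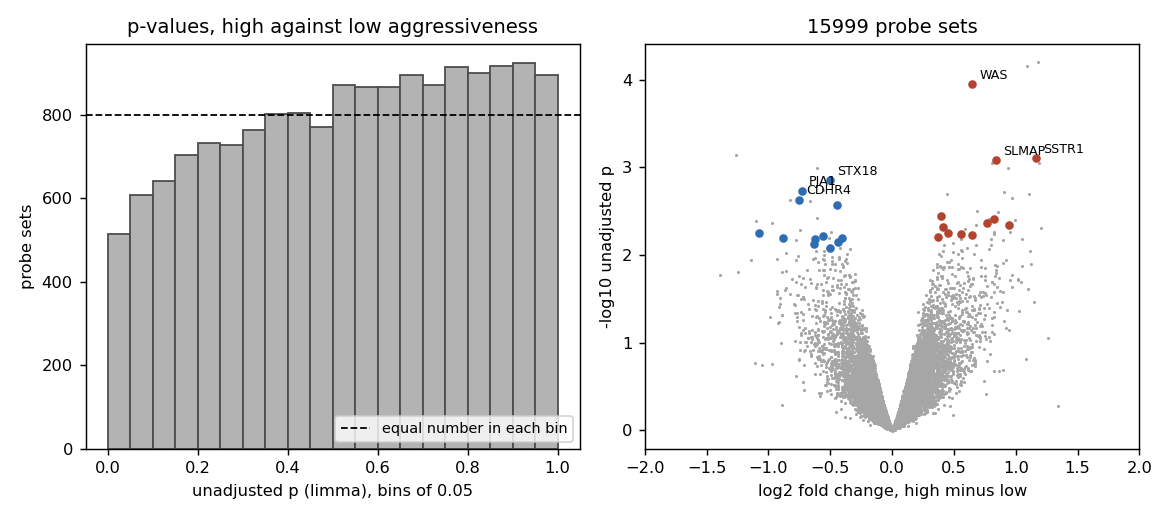
Left, unadjusted p-values of the 15999 probe sets in 20 bins, with a dashed line at the 800 that an even spread would put in each bin. Right, each probe set's log2 fold change (high minus low aggressiveness) against -log10 of its p, with the 12 leading named genes in each direction coloured. The first bin holds 515 probe sets, below the line.

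The 12 leading named genes in the higher direction, by p, are given next as measurements, since limma's adjusted p was 0.604 for WAS and 0.9999 for the other 11. Leading genes of either direction were taken on their probe set of smallest p, which need not be the brightest. Signals are the lowest, median and highest of the 6 animals. WAS, the actin regulator of blood cells whose loss causes Wiskott-Aldrich syndrome in humans, read 125, 150.0 and 207 at high and 76.0, 88.9 and 128 at low aggressiveness. Its fold change was 0.65 ± 0.11 (SE), 5 of the 6 high animals lay above all low ones, and it was 0.66 within low and 0.64 within high stress response. NCF4 encodes the p40 subunit of the phagocyte NADPH oxidase, which makes superoxide in neutrophils and macrophages. Its signals were 92.8, 124 and 133 against 76.3, 83.4 and 96.6, a fold change of 0.39 ± 0.11, or 0.12 with the EF1A covariate. Both genes are expressed in leukocytes, whose marker lists had median fold changes of -0.05 (neutrophils), -0.01 (macrophages) and 0.11 (T and NK cells). Their part in WAS and NCF4 was not tested.

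Among receptors and hormones, SSTR1, a somatostatin receptor, read 58.9, 77.3 and 123 at high and 4.55, 36.7 and 40.4 at low aggressiveness, a fold change of 1.17 ± 0.26 with no overlap between the groups. The lowest low animal, at 4.55, was far under the other 5. Probe sets were kept for testing by their mean over all 12 animals, and the lowest mean kept was 40.6. All 6 low animals of SSTR1 read under 40.6, so SSTR1 was tested only through its signals at high aggressiveness. The means at low aggressiveness of NPPA (32.2), SLMAP (29.4) and UBFD1 (31.0) were under it too. NPPA, the precursor of atrial natriuretic peptide, read 60.3, 67.3 and 78.1 against 6.94, 34.5 and 57.3, again without overlap (0.95 ± 0.27). HSD11B2, which turns cortisol into inactive cortisone and is best known from kidney, read 90.5, 117 and 139 against 65.6, 80.1 and 108 (0.41 ± 0.12, or 0.65 with the EF1A covariate). For HSD11B2, 4 of 6 high animals lay above all low ones, and its fold change was 0.43 within low and 0.39 within high stress response.

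Structural and membrane genes made up most of the rest. SLMAP, a membrane-anchored protein of muscle and of kinase signalling, read 45.6, 63.9 and 76.1 against 8.73, 32.0 and 45.6 (0.84 ± 0.19), where the lowest high animal and the highest low animal differed by less than 0.1. DCHS1, a large cadherin of planar cell polarity, read 75.0, 104 and 152 against 17.5, 64.1 and 89.6 (0.82 ± 0.23, or 0.49 with the EF1A covariate). ENO3, the muscle form of the glycolytic enzyme enolase, read 63.5, 87.0 and 143 against 27.6, 51.4 and 111 (0.65 ± 0.19, or 0.40 with the EF1A covariate), and only 1 high animal exceeded every low one. EDRF1, named for a role in erythroid differentiation, did not overlap between the groups, at 267, 289 and 432 against 176, 237 and 264 (0.45 ± 0.13, or 0.23 with the EF1A covariate). The other 3 were UBFD1 (0.76 ± 0.22, or 0.51 with the EF1A covariate), TMEM151B (0.56 ± 0.16, or 0.36 with the EF1A covariate) and TMEM127, a negative regulator of mTOR signalling (0.37 ± 0.11).

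The 12 named genes leading in the lower direction all had an adjusted p of 0.9999 with limma. STX18, a syntaxin of membrane fusion at the endoplasmic reticulum, read 64.3, 70.9 and 87.5 at high and 97.4, 105 and 144 at low aggressiveness, and all high animals lay below all low ones (-0.50 ± 0.12, or -0.76 with the EF1A covariate). PJA1, a RING-type ubiquitin ligase, read 675, 871 and 1180.2 against 906, 1594 and 1802 (-0.73 ± 0.18). One low animal sat among the high ones for PJA1, and the other 5 low animals were above every high animal. MAL2, a protein of transport to the apical, bile-facing membrane in human liver cell lines, read 890.4, 1141 and 1335 against 1308, 1578 and 1905 (-0.45 ± 0.12), with 5 of 6 high animals below all low ones. CDHR4, a cadherin-related protein, read 24.99, 42.8 and 61.5 against 57.4, 83.8 and 108 (-0.75 ± 0.19, or -1.36 with the EF1A covariate).

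Regulators of transcription and signalling followed. ZNF281, a zinc finger transcription factor, read 19.9, 50.02 and 136 against 103, 126 and 188 (-1.08 ± 0.32, or -0.36 with the EF1A covariate), and the spread at high aggressiveness followed stress response, as described below. PHF1, a partner of the Polycomb complex that silences genes, read 20.8, 38.5 and 76.1 against 57.0, 87.9 and 109.5 (-0.88 ± 0.26), but 0.12 with the EF1A covariate, which turns its direction. The median of PHF1 at high aggressiveness was under 40.6, the lowest mean kept for testing. RCAN3, a regulator of the phosphatase calcineurin, read 52.9, 65.5 and 103 against 99.2, 109.7 and 157 (-0.56 ± 0.17). MDK, the growth factor midkine, read 149, 197 and 239.6 against 199, 306 and 454 (-0.63 ± 0.19). C1QTNF6 (-0.41 ± 0.12), a secreted relative of complement C1q, SH3BGRL2 (-0.62 ± 0.19), MAGEH1 (-0.43 ± 0.13) and ABHD14A (-0.50 ± 0.16) completed the 12.

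**Figure D3:**
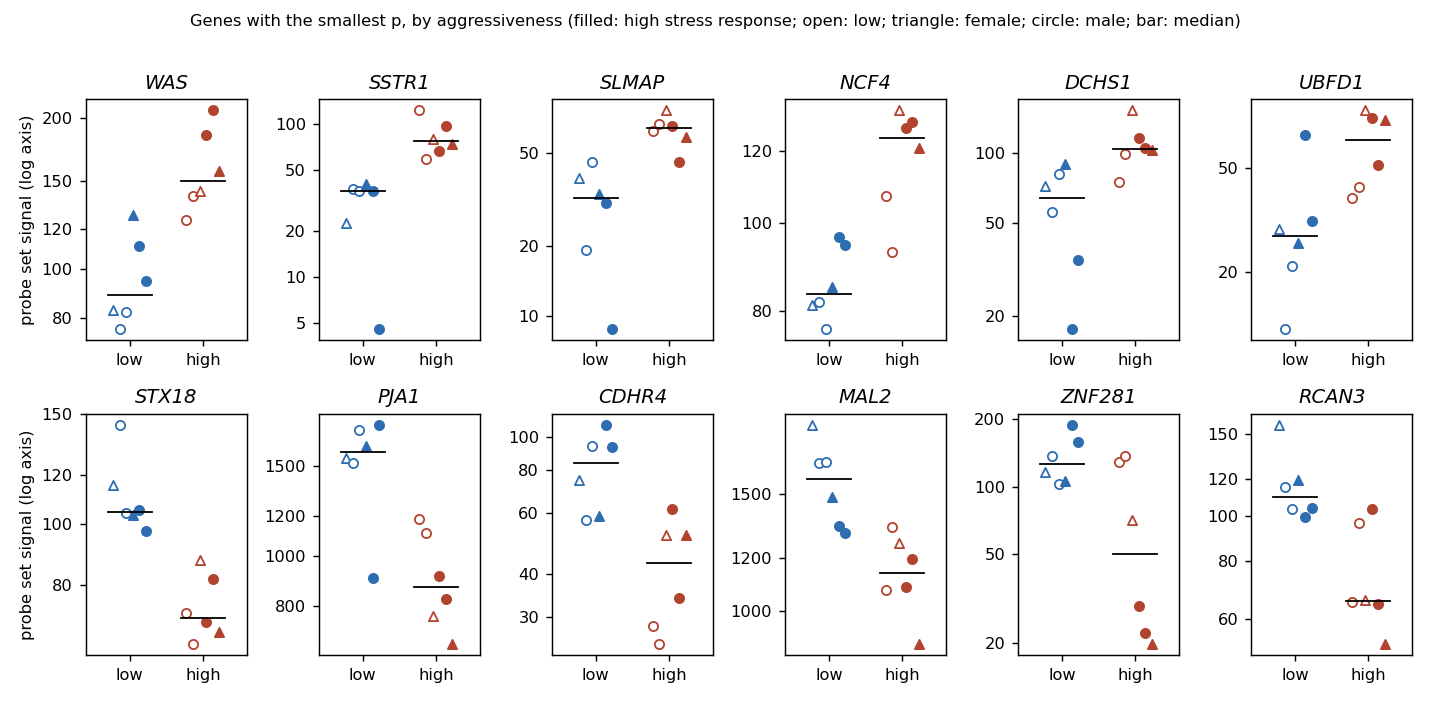
Signals (log axis) of the 6 named genes with the smallest p in each direction, 1 point per animal, filled for high and open for low stress response, triangles for females, with group medians. The top row is higher at high aggressiveness (SSTR1 median 77.3 against 36.7) and the bottom row lower (STX18 median 70.9 against 105), and no gene shown has a limma adjusted p under 0.05.

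Where the array had a second tested probe set for one of these genes, it mostly did not show the same difference. The other set of STX18 had a fold change of 0.09 ± 0.11, that of PJA1 0.08 ± 0.22, that of PHF1 0.04 ± 0.14 and that of UBFD1 -0.06 ± 0.13. For ZNF281, 5 other sets lay between -0.03 and 0.22. C1QTNF6 had 2 other sets, at 0.07 ± 0.29 and -0.17 ± 0.19, and SH3BGRL2 had 1, at 0.06 ± 0.12. The same sign with a smaller size was found for RCAN3 (-0.37 ± 0.21), MDK (-0.29 ± 0.18), ABHD14A (-0.33 ± 0.18) and TMEM127 (0.15 ± 0.10). The other set had a higher mean signal than the named one for STX18 (501), UBFD1 (1271), PHF1 (193), TMEM127 (1330), RCAN3 (180) and ABHD14A (415). So did all 5 other sets of ZNF281 (169 to 1436). The other set was dimmer for PJA1 (67.6), MDK (143) and SH3BGRL2 (83.1), and C1QTNF6 had 1 of each kind (166 and 50.8). Sets of 1 gene can read different transcript ends, and which of them follows the full-length transcript was not tested. The second sets of SSTR1, SLMAP, TMEM151B, CDHR4 and MAL2 were too dim to be tested.

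The groups did not overlap for 14 of the 15999 probe sets (0.0875%), 10 with high above low (0.0625%) and 4 with high below low (0.025%). Random labels would separate 6 against 6 with a probability of 0.00216, the exact permutation p given above for EF1A. The share found was smaller than that. The named ones were SSTR1, SLMAP, NPPA, EDRF1, STX18 and CBLB, a ubiquitin ligase that restrains T cell activation, at 126, 142 and 151 against 152, 167 and 201 (-0.25 ± 0.11). The other 8 had no gene name in the array's table. They included the 2 smallest p-values of the whole comparison, with a limma adjusted p of 0.553 each. The first read 44.2, 66.4 and 119 at high and 17.2, 20.7 and 34.6 at low aggressiveness (1.18 ± 0.19). All its low animals read under 40.6, the lowest mean kept for testing, so it was tested only through its high animals. The second read 78.1, 107 and 125 against 26.9, 40.6 and 56.9 (1.09 ± 0.18), and its mean at low aggressiveness, 41.3, was close to the lowest mean kept. These 2 showed a difference of more than 2-fold in median signal, and what they transcribe is not annotated here.

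Pathways were then read through 39 lists of genes with known roles in liver, 586 measured genes in all. Some genes stand on more than 1 list, so the counts of different lists are not independent. Of these, 8 (1.37%) had an unadjusted p under 0.05, 4 higher and 4 lower, beside 2.36% of all 5810 genes (1.29% higher, 1.07% lower), and none had a limma adjusted p under 0.05. For each gene below, the value given is its log2 fold change with the 95% interval, and signals are again lowest, median and highest. The list medians of the fold change ran from -0.16 to 0.20, 24 above and 15 below 0, where the median of all genes was -0.0001 and 2904 of the 5810 lay above 0. These sizes compare with intervals that reached a median of 0.34 to either side for a single gene. The sign of the list median turned in 18 of the 39 lists with the EF1A covariate and in 3 after quantile normalization. It turned in 26 when at least 1 single animal was left out, in 10 without the 2 arrays least like the rest, and in 12 without the 3 least like it.

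Among immune genes, interferon-stimulated genes, the effectors of antiviral defence, had the highest list median, 0.20, and 19 of 22 lay above 0, none with p under 0.05. The largest were MX1, a GTPase that traps viruses, at 0.57 (95% interval -0.26 to 1.40), and DDX58, the viral RNA sensor RIG-I, at 0.56 (95% interval -0.06 to 1.17). MX1 signals were 584, 1898 and 2995 at high and 446, 1150.1 and 2581 at low aggressiveness, so the groups overlapped over most of their range. The mean over the list, relative to the average of all animals, was -0.16, 0.09 and 0.45 (lowest, median, highest; log2) at high and -0.35, -0.18 and 0.23 at low aggressiveness. The list median was 0.11 without low aggressiveness 2, 0.27 without high aggressiveness 6, 0.13 without the 3 arrays least like the rest, and -0.01 with the EF1A covariate.

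Cytokine and chemokine genes were mixed, 11 of 21 above 0 with a median of 0.06, or -0.14 with the EF1A covariate. The inflammatory cytokine TNF read 113, 141 and 187 against 47.8, 85.4 and 194, a fold change of 0.52 (95% interval -0.02 to 1.05). SOCS1, which shuts off cytokine receptors, was at 0.47 (95% interval -0.01 to 0.95). CXCL12, the chemokine that retains leukocytes in tissue, was the list's 1 member with p under 0.05, at 2018, 2772 and 3843 against 2743, 3383 and 4853 (-0.35 ± 0.15, or -0.15 with the EF1A covariate), and -0.09 ± 0.16 on its other probe set. Genes of the swine MHC and of antigen presentation showed 11 of 21 above 0 and a median of 0.00, from PSMB8, a subunit of the immunoproteasome (-0.62, 95% interval -1.39 to 0.14), to SLA-6, a class I gene (0.33, 95% interval -0.14 to 0.81).

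Plasma protein genes of the hepatocyte mostly had small positive fold changes. Of 21 acute phase genes 18 lay above 0 (median 0.13), of 23 complement and coagulation genes 19 (median 0.07), and of 14 hepatocyte markers 12 (median 0.11), none with p under 0.05. Abundant products were close to each other. ALB was at 0.15 (95% interval -0.14 to 0.45), the complement hub C3 at 0.20 (95% interval -0.12 to 0.52), and the iron carrier transferrin (TF) at 0.17 (95% interval -0.12 to 0.45). CRP, the classic inducible acute phase protein, had the opposite sign, with signals of 5334, 11268 and 32535 against 4623, 16579.7 and 22490.2 and -0.25 (95% interval -0.92 to 0.42). The acute phase and hepatocyte medians were 0.02 after quantile normalization, -0.05 with the EF1A covariate, and 0.21 and 0.18 without the 2 arrays least like the rest. The complement and coagulation median was 0.015 without high aggressiveness 5, 0.15 without high aggressiveness 6 and -0.02 with the EF1A covariate. C7 and CFD, complement genes with strong expression outside hepatocytes, were at -0.56 (95% interval -1.18 to 0.07) and -0.24 (95% interval -0.49 to 0.02).

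Among lipid genes, cholesterol synthesis had 12 of 13 genes above 0 and a median of 0.15, 0.10 without low aggressiveness 3, 0.25 without high aggressiveness 4, 0.02 without the 3 arrays least like the rest and 0.22 with the EF1A covariate. HMGCS1, the entry enzyme that makes HMG-CoA, read 391, 733 and 1212 against 449, 498 and 644 (0.38, 95% interval -0.01 to 0.76). HSD17B7, a late enzyme of the pathway, was at 0.63 (95% interval -0.18 to 1.44). In the list of fatty acid and triglyceride synthesis 10 of 18 lay above 0 (median 0.035), led by fatty acid synthase (FASN) at 0.55 (95% interval -0.08 to 1.19) and the desaturase SCD at 0.52 (95% interval -0.168 to 1.205). Fatty acid oxidation and ketogenesis had 11 of 24 above 0 (median -0.01), and CPT1A, its gatekeeper at the mitochondrion, was at 0.09 (95% interval -0.27 to 0.45). Apolipoproteins and lipoprotein handling had 11 of 17 above 0 (median 0.05).

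Bile acid genes had the lowest list median, -0.16, with 1 of only 6 measured genes above 0. It was -0.28 without high aggressiveness 5, -0.07 without high aggressiveness 6 and 0.07 with the EF1A covariate. CYP7A1, the rate-limiting enzyme of bile acid synthesis, read 10.1, 50.8 and 601 at high and 17.2, 170.4 and 379 at low aggressiveness. Animals of either group ranged from under 20 to over 300, and its fold change was -0.71 (95% interval -2.30 to 0.87). Drug oxidation genes, mostly cytochromes P450, showed 14 of 22 above 0 (median 0.06), and conjugation enzymes 8 of 12 (median 0.06). CYP3A29, the porcine counterpart of the main human drug-oxidising P450, was at 0.03 (95% interval -0.43 to 0.49), and CYP2E1 at 0.05 (95% interval -0.22 to 0.31).

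Genes of fuel and nitrogen handling had medians near 0. Glucose metabolism had 8 of 19 above 0 (median -0.02), and its largest positive member was PCK1, the key enzyme of gluconeogenesis. PCK1 signals were 24971, 26572 and 27976 at high and 22261, 23588 and 25514 at low aggressiveness, a fold change of 0.17 (95% interval -0.05 to 0.38). Urea cycle and amino acid breakdown had 9 of 20 above 0 (median -0.01), with CPS1, the first enzyme of the cycle, at 0.05 (95% interval -0.20 to 0.31). Growth hormone and insulin-like growth factor genes had 11 of 13 above 0 (median 0.16), but the median was 0.03 without low aggressiveness 4 and 0.02 with the EF1A covariate. IGF1 itself, the growth factor that liver releases under growth hormone, was at 0.18 (95% interval -0.73 to 1.08).

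Stress hormone genes bear most directly on the question. In the list of glucocorticoid receptor, transport and metabolism, 7 of 11 lay above 0 (median 0.03), and HSD11B2 was its 1 member with p under 0.05. The receptor NR3C1 read 96.9, 119.8 and 242 at high and 141, 171 and 199.9 at low aggressiveness (-0.28, 95% interval -0.69 to 0.12). Its median at high aggressiveness lay below every low animal, and 1 high animal lay above all low ones. HSD11B1, which regenerates cortisol in liver, was at -0.05 (95% interval -0.36 to 0.25), and the cortisol carrier SERPINA6 at 0.19 (95% interval -0.49 to 0.88). Genes that glucocorticoids induce had 14 of 21 above 0 and a median of 0.09, with members from -0.64 to 0.34. The median was 0.09 within low and -0.03 within high stress response. The members named next all lie below 0, unlike most of the list. FKBP5, the feedback chaperone of the receptor, read 116, 158 and 465 against 122, 259 and 807 (-0.38, 95% interval -1.29 to 0.53), and TSC22D3 (GILZ) was at -0.02 (95% interval -0.42 to 0.38). GADD45A, a growth arrest gene, was at -0.64 (95% interval -1.39 to 0.11). No member of the induced genes had p under 0.05.

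Tryptophan, monoamine and catecholamine genes split evenly, 5 of 10 above 0 with a median of -0.002, or -0.215 with the EF1A covariate. MAOA, which degrades serotonin and noradrenaline and whose loss goes with aggression in mice and humans, read 1253, 1352 and 1459 against 1269, 1332 and 1739.9 in liver (-0.03, 95% interval -0.28 to 0.22). KMO, of the kynurenine branch of tryptophan breakdown, was at 0.21 (95% interval -0.11 to 0.54). Sex steroid metabolism and receptors had 5 of 11 above 0 (median -0.005), and the oestrogen receptor ESR1 was at 0.14 (95% interval -0.30 to 0.58). Immediate early genes, which answer acute stimuli within minutes, had 9 of 18 above 0 (median -0.02). EGR1 read 439, 709 and 1528 against 524, 1168 and 3954 (-0.74, 95% interval -1.59 to 0.11), and FOS was at 0.05 (95% interval -0.65 to 0.75).

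Housekeeping and stress protection lists had medians within 0.06 of 0. Cytosolic ribosomal proteins had 25 of 35 above 0 with a median of 0.02, or -0.03 after quantile normalization, and RPL37 was the 1 with p under 0.05 (-0.34 ± 0.15, or -0.03 with the EF1A covariate). Oxidative phosphorylation (17 of 33 above 0, median 0.01, or -0.01 after quantile normalization), the proteasome (14 of 31, median -0.001) and heat shock proteins (10 of 19, median 0.00) had little spread around 0. The unfolded protein response had 13 of 18 above 0 (median 0.04, or 0.16 with the EF1A covariate). Its chaperone HSPA5 was at 0.02 (95% interval -0.24 to 0.27). Antioxidant and metallothionein genes had 16 of 21 above 0 (median 0.05), and iron and heme handling 9 of 14 (median 0.05). The circadian clock had 5 of 7 above 0 (median 0.06, or 0.23 with the EF1A covariate). Liver nuclear receptors and transcription factors had 9 of 17 (median 0.01). Cell cycle and replication genes lay on the other side, 6 of 20 above 0 with a median of -0.12. The median was -0.05 without low aggressiveness 4, and -0.03 with the EF1A covariate. MCM2, a subunit of the replicative helicase, was at -0.40 (95% interval -0.84 to 0.04), and the mitotic activator CDC20 at -0.74 (95% interval -1.58 to 0.10).

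Markers of the other cell types of liver were read in the same way. In whole tissue fewer cells of a type and less RNA per cell cannot be told apart. Cholangiocytes, the lining cells of bile ducts, were the list with the most members at p under 0.05, 4 of 7, and they pointed both ways. EPCAM, an adhesion molecule of duct epithelium, read 50.6, 101 and 145 at high and 107, 141 and 172 at low aggressiveness (-0.45 ± 0.20, or -0.04 with the EF1A covariate). SPP1, the secreted protein osteopontin, read 365, 512 and 759 against 387, 859.5 and 3297 (-0.89 ± 0.40), or -0.49 without low aggressiveness 3. PROM1, a membrane protein of progenitor and duct cells, read 29.0, 71.4 and 98.4 against 2.67, 38.0 and 87.0 (0.75 ± 0.34, or 0.18 with the EF1A covariate), and CLDN4, a tight junction protein, 2282, 2757 and 3481 against 2019.6, 2345 and 2715 (0.27 ± 0.11). The fold change of PROM1 was -0.12 within low and 1.62 within high stress response. KRT19, the defining duct keratin, read 6.02, 42.0 and 121 against 12.2, 61.2 and 144 (-0.46, 95% interval -1.69 to 0.77). The epithelial keratins KRT8 and KRT18, shared with hepatocytes, were at 0.13 (95% interval -0.32 to 0.58) and 0.07 (95% interval -0.54 to 0.68). The mean over the list was -0.34 to 0.15 at high and -0.24 to 0.41 at low aggressiveness, so the ranges overlapped. The list median was 0.07, or -0.14 without high aggressiveness 6 and 0.24 without high aggressiveness 3.

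Stellate cell and fibroblast markers, from the cells that store vitamin A and lay down matrix, had 4 of 12 above 0 and a median of -0.14. The median was -0.22 without low aggressiveness 5, -0.07 without high aggressiveness 6, -0.03 without the 2 and 0.07 without the 3 arrays least like the rest, and 0.15 within low and -0.41 within high stress response. The matrix proteoglycan decorin (DCN) was at -0.52 (95% interval -1.14 to 0.09), the collagen crosslinker LOX at -0.70 (95% interval -1.54 to 0.15), and the collagens COL1A2 and COL3A1 had the other sign, at 0.18 (95% interval -0.19 to 0.56) and 0.28 (95% interval -0.16 to 0.72). The intermediate filament genes VIM and DES were at -0.30 (95% interval -0.73 to 0.13) and -0.19 (95% interval -0.50 to 0.12), and the pericyte gene RGS5 at -0.44 (95% interval -1.03 to 0.16). TIMP1, an inhibitor of matrix-degrading proteases, was at -0.37 (95% interval -0.92 to 0.18), the growth factor receptor PDGFRB at -0.08 (95% interval -0.53 to 0.36) and COL5A1 at -0.04 (95% interval -0.47 to 0.39). The contractile genes ACTA2 and TAGLN were at 0.08 (95% interval -0.75 to 0.91) and 0.02 (95% interval -0.66 to 0.70). The mean over the list was -0.21 to 0.13 at high and -0.34 to 0.49 at low aggressiveness. Kupffer cell and macrophage markers had 5 of 10 above 0 (median -0.01, or 0.20 with the EF1A covariate). The scavenger receptor CD163 was at -0.05 (95% interval -0.43 to 0.34). Endothelial markers had 4 of 10 above 0 (median -0.03), and neutrophil markers 3 of 6 (median -0.05) with NCF4 among them. T and NK cell markers had 7 of 10 above 0 and a median of 0.11, which was -0.06 without high aggressiveness 3 and -0.55 with the EF1A covariate. Erythroid markers (2 of 4 above 0, median -0.01) and the 1 measured B and plasma cell marker, JCHAIN (-0.05, 95% interval -0.51 to 0.41), were too few to describe further. With the EF1A covariate the erythroid median was -0.90 and JCHAIN was at -0.63.

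**Figure D4:**
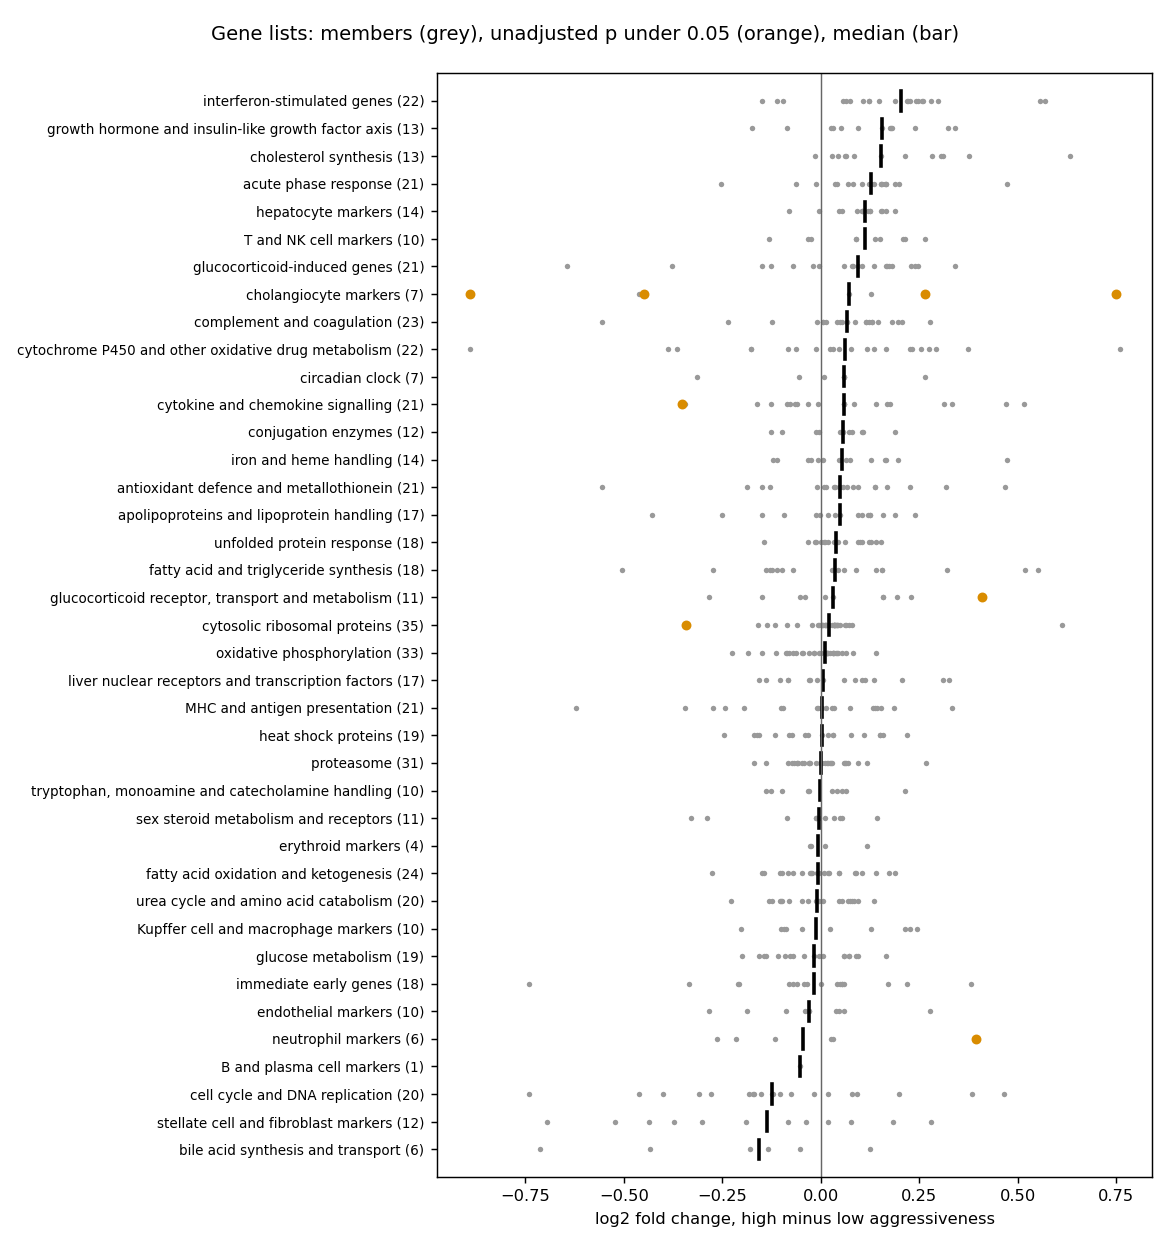
Log2 fold change (high minus low aggressiveness) of each measured gene in the 39 lists, ordered by list median, with the number of measured genes in brackets. Orange points, 8 genes in all, have an unadjusted p under 0.05, and list medians run from -0.16 for bile acid genes to 0.20 for interferon-stimulated genes.

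The comparison was last split by stress response, 3 animals against 3. Within low stress response 0 probe sets (0.0%) had a limma adjusted p under 0.05, the smallest being 0.933. An unadjusted p under 0.05 was found for 511 (3.19%), 323 higher (2.02%) and 188 lower (1.18%). Within high stress response 2 passed (0.0125%), both lower at high aggressiveness, and 581 had an unadjusted p under 0.05 (3.63%), 272 higher (1.7%) and 309 lower (1.93%). ZNF281 read 19.9, 22.2 and 29.4 in the 3 animals with high aggressiveness and 106, 157 and 188 in the 3 with low, a fold change of -2.04 ± 0.20 (limma adjusted p = 0.0180). PRKAG3, the γ3 subunit of AMP-activated protein kinase, known in pigs for a mutation that raises muscle glycogen, read 23.6, 33.7 and 35.7 against 98.3, 105 and 158, a fold change of -1.52 ± 0.18 (limma adjusted p = 0.0480). Over all 12 animals PRKAG3 had a fold change of -0.71 ± 0.27, or -0.06 with the EF1A covariate. For both genes the 3 high-aggressiveness animals were far below the other 9. On both sets all 3 read under 40.6, the lowest mean kept for testing, so both were tested only through the other animals. The adjusted p became 0.546 for ZNF281 and 0.999 for PRKAG3 with limma on only these 6 arrays. With single animals left out it ran from 0.0197 to 0.175 for ZNF281 and from 0.0302 to 0.530 for PRKAG3, and the call was lost in 7 of 12 and 11 of 12 cases. The 5 other probe sets of ZNF281 lay between 0.04 and 0.47 within high stress response, so the difference was that of 1 set.

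Whether the effect of aggressiveness differed with stress response was tested as an interaction, and 0 of 15999 passed (0.0%; smallest limma adjusted p 0.567; 619, or 3.87%, at an unadjusted p under 0.05, of which 1.59% had a higher and 2.28% a lower fold change at high stress response). The leading genes were ZNF281 (-1.93 ± 0.29) and PRKAG3 (-1.63 ± 0.26), with a limma adjusted p of 0.567 each, followed by 4 genes with an effect of opposite sign in the 2 classes. OGDHL, a relative of the oxoglutarate dehydrogenase of the citric acid cycle, read 216, 249 and 412 at high and 1015, 1367 and 1529 at low aggressiveness within low stress response. Within high stress response it read 851, 1130.0 and 1174 at high and 198, 219 and 921 at low aggressiveness. The fold changes were -2.13 ± 0.48 and 1.55 ± 0.48, an interaction of 3.68 ± 0.68 with a limma adjusted p of 0.766, which ran from 0.0199 (without low aggressiveness 6) to 0.9998 over the alternatives. Low aggressiveness 6 is the animal at 921.

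RGS16, which switches off G protein signals, went the same way, at 21.2, 33.1 and 106 against 67.0, 77.3 and 78.0 within low and 57.0, 83.4 and 119 against 7.55, 13.4 and 16.6 within high stress response. Its interaction was 2.38 ± 0.44 (limma adjusted p = 0.766), and the adjusted p ran from 0.0335 (2.82, without high aggressiveness 1) to 0.99997 over the alternatives. AGK, a mitochondrial lipid kinase, read 117, 141 and 172 at high and 165, 328 and 357 at low aggressiveness within low stress response, and 222, 373 and 444 against 58.9, 104 and 185 within high. It had fold changes of -0.85 ± 0.30 and 1.52 ± 0.30, and its other probe set an interaction of -0.70. GRK5, a kinase that desensitises G protein-coupled receptors, read 166, 171 and 181 against 74.3, 113 and 115 within low and 69.3, 92.8 and 105 against 116, 155 and 179.8 within high stress response. Its fold changes were of the other sign, 0.72 ± 0.20 within low and -0.66 ± 0.20 within high stress response. Over all 12 animals the fold changes of these 4 genes, which take opposite signs in the 2 classes, were not stable. OGDHL was at -0.29 ± 0.63, from -0.71 to 0.03 with single animals left out and -2.34 with the EF1A covariate. GRK5 was at 0.03 ± 0.24, from -0.12 to 0.16 and 0.49. RGS16 was at 0.62 ± 0.41, or -0.06 with the EF1A covariate, and AGK at 0.33 ± 0.40, or -0.08 without the 2 arrays least like the rest.

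**Figure D5:**
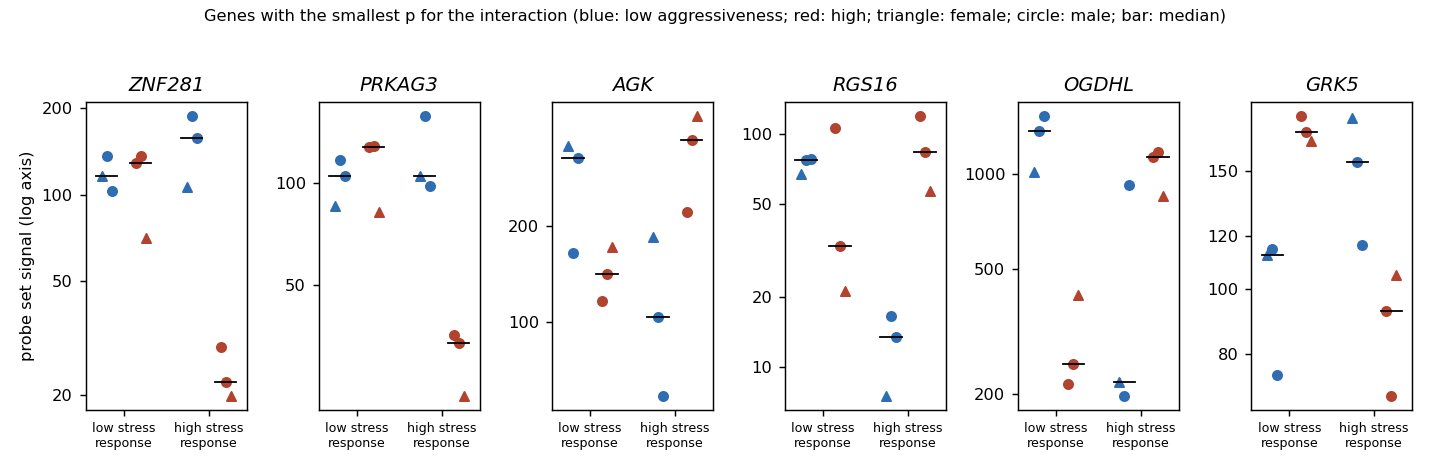
Signals (log axis) of the 6 genes with the smallest interaction p in the 4 combinations of aggressiveness and stress response, 3 animals each, with medians. ZNF281 and PRKAG3 are low only in the 3 animals high in both traits among these 12, and OGDHL crosses over, with a median of 1367 against 249 at low and 219 against 1130 at high stress response (low against high aggressiveness).

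The comparison was also split by sex after the data were seen, with 2 females and 4 males in each group. With limma 0 of 15999 probe sets (0.0%) passed for the difference between the sexes, the smallest adjusted p being 0.151. An unadjusted p under 0.05 was found for 1184 (7.4%), of which 923 had a higher fold change in females (5.77%) and 261 a lower one (1.63%). An even spread of p-values would give 800. The median fold change over all probe sets was 0.079 in females and -0.022 in males. The 2 females with high aggressiveness had array median signals of 117 and 108 and EF1A ratios of 0.993 and 0.933. Those with low aggressiveness had medians of 101 and 98.1 and ratios of 0.734 and 0.736. The part of these array measures in the split by sex was not tested.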

How the data were processed

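Each of 12 pigs gave 1 Affymetrix porcine array of liver RNA. Deposited were linear probe set signals (an intensity), and GCOS 1.1.1 is the software the submitters' processing notes name; the summary method and scaling were not given in the sources used here. Of 24123 probe sets, 124 controls and the dimmest 33.3% of the remaining 23999 were left out, so that 15999 were tested. Dimness was judged by the mean log2 value over all 12 arrays, and the lowest mean kept was a signal of 40.6. Names came from the array's table: 10099 probe sets had 1 symbol, 198 several and 13826 none. For counts over genes and for the lists, a gene (5810 in all) was its tested probe set of highest mean. Genes leading by p or by interaction p were instead picked over all 7933 tested probe sets with 1 symbol. Each stands for its probe set of smallest p, which need not be the brightest.

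Values were log2(signal + 16). limma 3.58.1 (R 4.3.3) was fitted with aggressiveness, stress response and sex (8 residual degrees of freedom), and with the interaction of aggressiveness and stress response added (7) for that interaction and the effects within each class of stress response. The threshold was 0.05 for p adjusted over all 15999 by Benjamini and Hochberg. Errors are standard errors (SE) from limma, or 95% intervals. The number of arrays limits precision. RNA ratios were compared by exact permutation, two-sided. Replicate numbers only name animals and pair none. The code was tested on simulated data. Figures used matplotlib 3.10.9.

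The comparison, lists and rules were chosen with earlier results of these data known. Named were the 12 genes higher and 12 lower with the smallest p, list members with p under 0.05, members described in each list from those of smallest p or chosen after their values were seen as well known genes, 6 genes of smallest interaction p, probe sets whose groups did not overlap, all markers of bile duct and stellate cells, and genes that passed. Alternatives were other models, filters, scalings, added constants, variance settings, RNA covariates and subsets of animals.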

Additional observations from a re-analysis of the deposited data

Results flagged for a closer look

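In 6 of 174 groups of 6 animals (3.45%) the highest or lowest animal stood apart by a gap of more than 0.625 of the group's whole range. Chance gives about 1 such group in 20. For PJA1, low aggressiveness 5 had a signal of 906 and the other 5 low animals 1517 to 1802. For C1QTNF6, low aggressiveness 1 had 98.6 and the others 154 to 160.1. For the unnamed probe set with the smallest p of the whole comparison, low aggressiveness 4 had 34.6 and the others 17.2 to 21.8.

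The other 3 were list means, in log2 units relative to the average of all animals. For bile acid synthesis and transport, low aggressiveness 6 was at -0.812 and the other low animals at 0.133 to 0.593. For glucocorticoid-induced genes the same animal was at 0.505 and the others at -0.277 to 0.00383. For tryptophan, monoamine and catecholamine handling, high aggressiveness 6 was at -0.400 and the other high animals at 0.0446 to 0.11. These 2 animals gave the arrays with the lowest correlations with the rest, and the part of array quality in these values was not tested.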

How the results depend on the processing

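Across the 29 alternatives the count of probe sets with an adjusted p under 0.05 between high and low aggressiveness stayed at 0, and so did that within low stress response with each animal left out. The counts at an unadjusted p under 0.05 moved more. Those higher numbered 295 of 15999 in the main fit and 615 of 23999 without a filter. With the dimmest 50% left out, which tests fewer probe sets, they numbered 159. On the same 15999 they numbered 149 with the EF1A covariate. With single animals left out they ran from 230 to 454, the 454 without low aggressiveness 6. Those lower numbered 220 of 15999 in the main fit and 358 of 23999 without a filter. On the same 15999 they numbered 421 among males and 420 with the EF1A covariate. The share of higher ones among all at p under 0.05 was 57.3%, against 49.4% after quantile normalization, 37.4% among males and 26.2% with the EF1A covariate. The 2 within high stress response became 0 with log2(signal + 64), 1 after quantile normalization, 0 without a filter, 0 on the 6 arrays alone, and 0 to 2 with single animals left out. The interaction gave 0 to 1 with single animals left out. Among the genes that lead by p or do not overlap, the sign turned for PHF1 (0.12) and an unnamed probe set without overlap (-0.0402, from 0.38) with the EF1A covariate. Of the genes named for their interaction, RGS16 (-0.06 with the EF1A covariate), AGK, OGDHL and GRK5 turned in their fold change over all 12 animals. The actin ratio turned, at -0.0868 to 0.117 with single animals left out. Of 1170 list medians under alternatives, 21 moved beyond the spread between animals. Chosen after seeing the data were the alternatives within each class of stress response, the split by sex and leaving out the 3 arrays least like the rest. Causes were not tested, beyond the fewer probe sets or animals that an alternative holds. No paired analysis was possible because the labels pair no animals of the 2 groups. Dim probe sets limit what can be read, and 12 arrays cannot show small differences.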

Other observations

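PAFAH2, an enzyme that hydrolyses platelet-activating factor and oxidised phospholipids, had 2 of the 3 smallest p-values for the difference between the sexes in the fold change, and was named after its values were seen. On the first, the 2 females with high aggressiveness read 466.3 and 589.3 and those with low 273.1 and 273. The 4 males with high aggressiveness read 317 to 346, and those with low 489.7 to 564. The fold change was 0.90 in females and -0.65 in males, a difference of 1.55 ± 0.22 (limma adjusted p = 0.151). On the second probe set the females read 524 and 636 against 282 and 306.6, and the males 358 to 574 against 734 to 856. The fold changes were 0.94 and -0.82, a difference of 1.76 ± 0.26 (limma adjusted p = 0.151). On both sets high aggressiveness read above low in every female and below low in every male. RNF149, a ubiquitin ligase, had a fold change of 2.58 in females and -0.29 in males (limma adjusted p = 0.151 for the difference).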
